A study of Mus musculus with 7 samples.

Results

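The genes of MHC class I antigen presentation were followed in the retina of WT and SCA7 mice. They comprised 10 genes chosen by name from a table of 52550 genes, namely the classical heavy chains *H2-K1* and *H2-D1*, their light chain *B2m*, the peptide transporter and loading genes *Tap1*, *Tap2* and *Tapbp*, the immunoproteasome subunits *Psmb8*, *Psmb9* and *Psmb10*, and the transactivator *Nlrc5*. All 10 were among the 20128 genes with enough counts to be tested. In spinocerebellar ataxia type 7 (SCA7), an inherited CAG repeat disease, patients lose coordination and sight because ataxin-7 carries too many glutamines. The study compared 4 WT mice with 3 mice homozygous for an SCA7 knock-in (KI) allele that codes for 140 glutamines, all of strain C57BL/6J and 12.5 weeks old. The mutant protein is produced from the *Atxn7* locus itself and hence under the gene's own promoter, so that the allele is not limited to photoreceptors or to the retina. Each library was total RNA, depleted of ribosomal RNA, from the 2 retinas of a single mouse.

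MHC class I molecules display peptides from a cell's own cytoplasm to CD8 T cells and to inhibitory receptors of natural killer cells. The peptides are cut by the proteasome, whose interferon-inducible catalytic subunits replace the constitutive ones to form the immunoproteasome, are pumped into the endoplasmic reticulum by the transporter TAP and are loaded with the help of tapasin onto heavy chains paired with beta-2 microglobulin. NLRC5 switches on class I genes together with factors bound to a conserved promoter module, interferons and NF-kappaB act on neighbouring elements, and the normal retina, an immune-privileged tissue, is known for low levels of class I molecules.

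The promoters are shown first because class I genes are known for this shared module. Windows from 250 bases before to 50 bases after the RefSeq start (GRCm38.p6) were given for 8 of the 10 genes, all but *Tap2* and *Nlrc5*, and 4 are printed 5′ to 3′ on the strand of the gene: the classical heavy chains, the light chain and *Tap1*. Capitals mark every match, on either strand, to any of 5 motifs: the interferon-stimulated response element (GAAA, any 2 bases, then GAAA again), the gamma-activated site TTCNNNGAA, the NF-kappaB consensus, the CCAAT box and the core TGACG of the cyclic AMP response element. No match in these 4 windows overlapped a match to another motif. *H2-K1* has 2 annotated starts, and the window of one of them is printed.
H2-K1, chr17:34000298-34000597, minus strand: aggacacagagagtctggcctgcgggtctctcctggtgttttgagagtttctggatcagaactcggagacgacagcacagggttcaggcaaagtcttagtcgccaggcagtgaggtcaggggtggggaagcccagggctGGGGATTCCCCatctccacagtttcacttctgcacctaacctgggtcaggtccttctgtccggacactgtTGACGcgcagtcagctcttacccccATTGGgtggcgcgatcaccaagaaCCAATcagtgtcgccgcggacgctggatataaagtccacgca
H2-D1, chr17:35262844-35263143, plus strand: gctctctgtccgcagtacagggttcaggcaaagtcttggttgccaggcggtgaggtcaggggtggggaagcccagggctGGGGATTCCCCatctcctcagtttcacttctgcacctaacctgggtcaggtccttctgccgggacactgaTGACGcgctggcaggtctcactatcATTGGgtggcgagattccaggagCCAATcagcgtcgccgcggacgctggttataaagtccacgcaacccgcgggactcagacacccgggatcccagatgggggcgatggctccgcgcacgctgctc
B2m, chr2:122147437-122147736, plus strand: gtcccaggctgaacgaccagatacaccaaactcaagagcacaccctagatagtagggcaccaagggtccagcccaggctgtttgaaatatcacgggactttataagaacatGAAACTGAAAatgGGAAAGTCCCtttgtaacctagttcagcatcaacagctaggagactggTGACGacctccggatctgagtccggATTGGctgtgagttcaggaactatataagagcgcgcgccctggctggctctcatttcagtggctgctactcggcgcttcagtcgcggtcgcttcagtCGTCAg
Tap1, chr17:34187306-34187605, plus strand: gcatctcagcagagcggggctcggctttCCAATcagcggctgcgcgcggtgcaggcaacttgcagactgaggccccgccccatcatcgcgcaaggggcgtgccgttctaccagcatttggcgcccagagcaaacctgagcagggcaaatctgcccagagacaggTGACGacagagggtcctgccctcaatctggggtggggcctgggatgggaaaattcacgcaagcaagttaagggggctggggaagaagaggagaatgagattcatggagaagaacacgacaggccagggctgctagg

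The windows of *H2-K1*, *H2-D1* and *B2m* each hold a match to the NF-kappaB consensus, which 8.46% of 32851 mouse promoter windows hold. The *B2m* window also holds the letters used for the interferon-stimulated response element, present in 3.44% of windows. Among the members those exact letters were matched in *B2m* alone. Looser forms of the element were not searched, so a window without a match may still hold one. TTCNNNGAA, present in 8.3% of windows, was matched in *Psmb8* alone. CCAAT was matched in 6 of the 8 windows and TGACG in 5, and these short motifs occur in 37.4% and 20.8% of all windows. In *H2-K1*, *H2-D1* and *B2m*, TGACG is followed after exactly 20 bases by ATTGG, the CCAAT box read on the other strand, starting at positions -41, -101 and -78 from the respective start. That spacing was noticed in the printed sequences and then counted, and 31 of the 32851 windows (0.0944%), of 27 genes, hold it, among them *H2-M3*, a further class I heavy chain described with its group. With any spacing of 5 to 40 bases between these letters, 349 windows (1.06%) hold the pair, so the rarity of the exact spacing rests on its choice from these genes. *Tap1* and *Psmb9* lie head to head with starts 226 bases apart, so their windows share 275 bases. Their CCAAT and TGACG matches are the same sites read on opposite strands, so each is counted for both genes above. A match to these letters is a description of the sequence and was not tested as a binding site.

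All 10 members were upregulated in SCA7 retina and none was downregulated. Upregulation was called where FC (SCA7/WT) exceeded 1.3 and the p-value of the edgeR quasi-likelihood test, adjusted by Benjamini-Hochberg over all tested genes, was under 0.05, and 7.47% of tested genes met that rule, while 7.91% met the rule for downregulation (FC under 0.7). The median log2 fold change was 0.97 over the 10 members and -0.019 over all tested genes. In each of the 10, every SCA7 library lay above every WT library, which held for 19.3% of tested genes. Of the 10, 5 were upregulated with an FC above 2, which held for 1.8% of tested genes. *Tap2* was at the edge of that count (FC 2.001) and fell below it without SCA7 1 (log2 fold change 0.894). With library totals in place of TMM, *H2-D1*, *Tap1* and *Psmb9* passed an FC of 2 as well (log2 fold changes 1.105, 1.133 and 1.044). With the threshold set to an adjusted p under 0.01, 9 members were upregulated against 5.73% of tested genes, and with no FC threshold all 10 were higher against 14.2%. The members took 0.019% to 0.0203% of all counts in the WT libraries and 0.0403% to 0.0451% in the SCA7 libraries. In whole retina, more cells of an expressing type and more RNA per cell cannot be told apart.

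**Figure D1:**
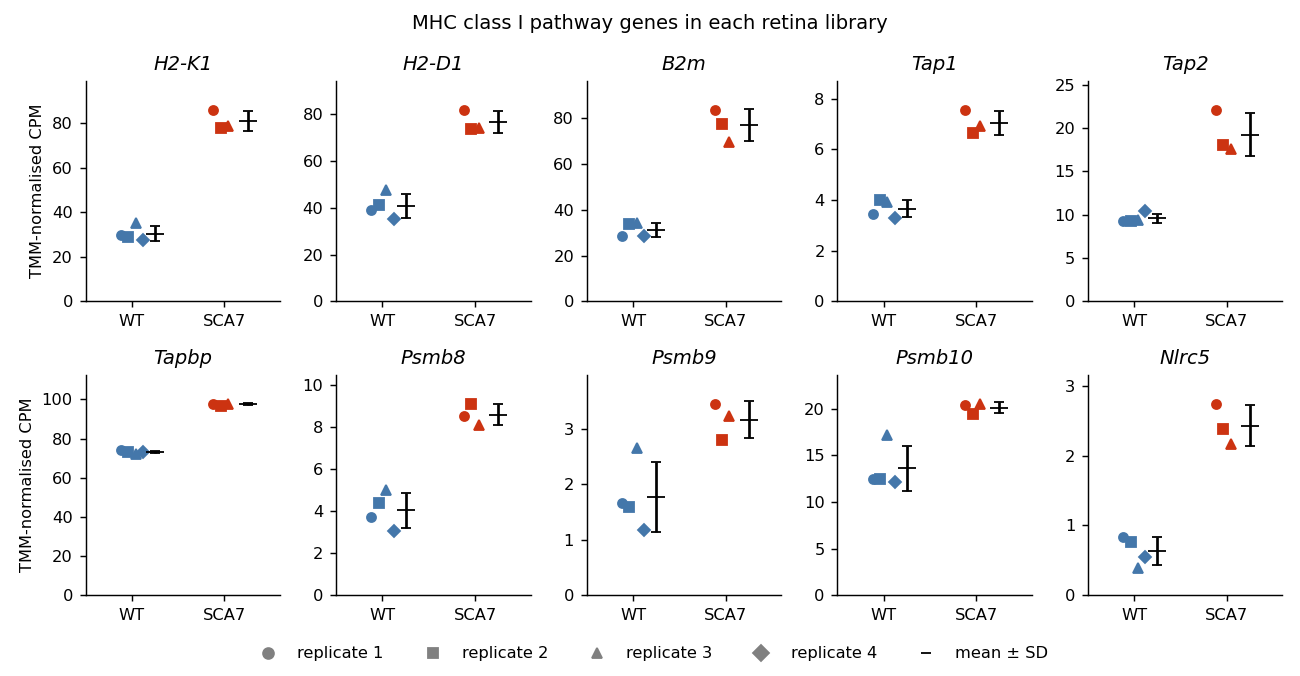
TMM-normalised counts per 1000000 (CPM, vertical axes starting at 0) of the 10 class I genes in each library, with WT in blue and SCA7 in red, 1 symbol per replicate number and black bars for the mean ± SD (n = 4 WT, n = 3 SCA7). In all 10 panels the 3 SCA7 points lie above the 4 WT points; the closest approach is in *Psmb9*, where WT replicate 3 stood at 2.66 CPM and the lowest SCA7 library at 2.80 CPM.

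Libraries are named by genotype and replicate number, and values are given in the order WT 1 to WT 4 and SCA7 1 to SCA7 3. Among the 7 libraries, total counts were between 56497675 and 96635832, so 1 count was worth 0.00972 to 0.0188 CPM (counts per 1000000, TMM-scaled). The TMM factors used for all CPM values here were 0.8905 to 0.9742 in WT and 1.065 to 1.0896 in SCA7 libraries. The summed level of 10 rod markers was 69490 to 71560 CPM in WT and 19520 to 24880 CPM in SCA7 libraries, which bears out the tissue label and shows much lower rod transcript levels in SCA7 retina. *Xist*, the RNA of the inactive X chromosome, was at 0.300 CPM or lower in every library. No pair of replicates held the same values: the chi-square per degree of freedom between replicates of a group was 10.5 to 101.5, highest between WT 3 and WT 4.

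The classical heavy chains and their light chain rose 1.88-fold to 2.67-fold. *H2-K1* (ENSMUSG00000061232, chromosome 17 from 33996017 to 34000347, minus strand, mm10) codes for the K heavy chain. Its levels were 29.8, 28.8, 35.2 and 27.6 CPM in the WT libraries and 86.1, 78.1 and 78.6 CPM in the SCA7 libraries. The groups were far apart, with the highest WT library below the lowest SCA7 library by a wide margin. The log2 fold change was 1.41 (SE 0.081, FC 2.67, adjusted p = 2.6e-07 by the edgeR quasi-likelihood test).

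*H2-D1* (ENSMUSG00000073411, chromosome 17 from 35262730 to 35267499, plus strand), the D heavy chain, was the more abundant of the pair per kb of exon in WT retina. It stood at 39.3, 41.4, 47.4 and 35.1 CPM in WT and at 82.0, 73.7 and 74.2 CPM in SCA7. All SCA7 libraries were higher than all WT libraries, and WT 3 was the highest WT library for both heavy chains. The increase was smaller than that of *H2-K1*, with a log2 fold change of 0.91 (SE 0.089, FC 1.88, edgeR adjusted p = 1.8e-05).

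*B2m* (ENSMUSG00000060802, chromosome 2 from 122147686 to 122153083, plus strand) codes for beta-2 microglobulin, the light chain that class I heavy chains need to reach the cell surface. It lies apart from the MHC region and has a single annotated transcript of 860 bases. WT libraries had 28.6, 33.6, 34.2 and 28.6 CPM, and SCA7 libraries had 83.7, 77.4 and 69.7 CPM. The separation was as clear as for *H2-K1*, and the log2 fold change was 1.301 (SE 0.084, FC 2.46, edgeR adjusted p = 6.2e-07).

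The proportion of the chains to each other was compared within libraries, where library scaling has no part, by an exact permutation test, two-sided, over all 35 assignments of the genotype labels (smallest p 0.0286), adjusted over 8 ratios. Per kb of the union of exons, *H2-K1* stood at 0.655 ± 0.0332 (SD, n = 4) of *H2-D1* in WT and at 0.927 ± 0.00492 (SD, n = 3) in SCA7 retina, a 1.42-fold higher ratio (exact p = 0.0286, adjusted 0.0458). With the median transcript as length the ratio was 0.486 in WT and 0.688 in SCA7, so that the fold between genotypes is the same but how near the K chain stands to the D chain depends on the length used. *H2-D1* over *B2m*, again per kb of the union of exons, fell from 0.436 to 0.333 (difference -0.39 on the log2 scale, exact p = 0.0286, adjusted 0.0458). For *H2-K1* over *B2m* the ratio was 0.286 ± 0.0247 in WT (SD, n = 4) and 0.309 ± 0.0189 in SCA7 (SD, n = 3), overlapping groups with a difference of 0.12 on the log2 scale (exact p = 0.286, adjusted 0.327). With any library left out, these exact tests can no longer reach an adjusted p under 0.05.

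**Figure D2:**
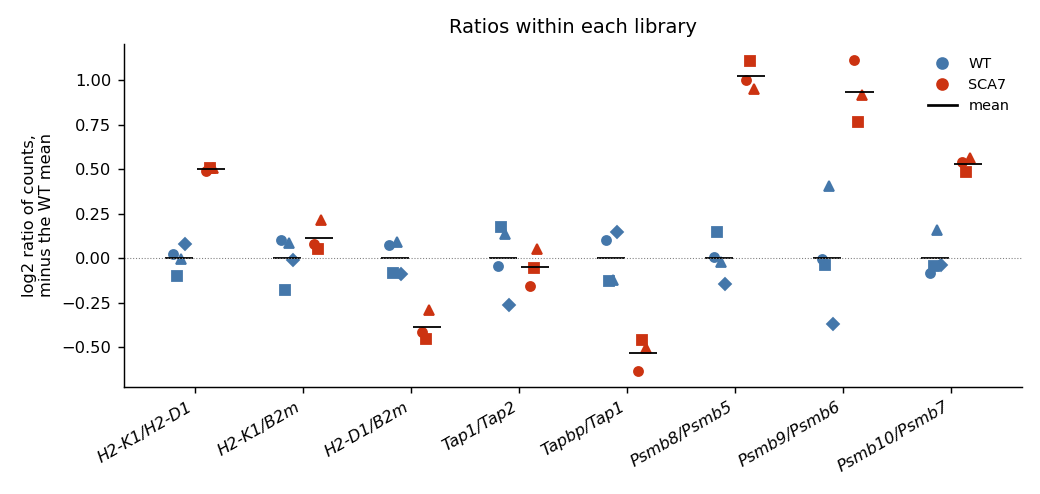
Each ratio of 2 genes in each library, as log2 ratio of counts minus the WT mean (vertical axis), with WT in blue, SCA7 in red, 1 symbol per replicate number and black lines for the group means. *H2-K1* over *H2-D1* is 0.50 higher in SCA7 with hardly any spread, while *H2-K1* over *B2m* and *Tap1* over *Tap2* overlap between the groups.

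Reads of 50 bases can fall on more than a single class I gene. Of the 50-base words in the annotated transcripts, 90.4% were found in no other gene for *H2-K1*, 87.2% for *H2-D1* and 100% for *B2m*. Because part of the sequence is shared between heavy chains, the counts of 21 class I heavy chain genes of the region were also summed into 1 feature. In WT libraries the sum was 89.5 ± 10.06 CPM (SD, n = 4), and in SCA7 libraries it was 192 ± 10.3 CPM (SD, n = 3), with a log2 fold change of 1.10 (SE 0.084, edgeR adjusted p = 2.3e-06). *H2-K1* and *H2-D1* made up 77.9% to 80.5% of it in the WT libraries and 81.7% to 82.5% in the SCA7 libraries.

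The genes that bring peptides to class I molecules rose as well, by unequal amounts. *Tap1* and *Tap2* code for the subunits of the peptide transporter and lie with *Psmb8* and *Psmb9* in 1 cluster inside the MHC class II region. *Tap1* (ENSMUSG00000037321, chromosome 17 from 34187553 to 34197225, plus strand) was at 3.43, 3.99, 3.92 and 3.29 CPM in WT and at 7.56, 6.62 and 6.91 CPM in SCA7. *Tap2* (ENSMUSG00000024339, chromosome 17 from 34203527 to 34216321, plus strand) was at 9.31, 9.30, 9.40 and 10.4 CPM in WT and at 22.1, 18.1 and 17.5 CPM in SCA7. For both transporter genes every SCA7 library stood well above the WT range, with SCA7 1 the highest. The log2 fold changes were 0.94 for *Tap1* (SE 0.104, FC 1.92, edgeR adjusted p = 4.2e-05) and 1.00 for *Tap2* (SE 0.09, FC 2.00, edgeR adjusted p = 7.9e-06). Their ratio within a library, per kb of the union of exons, was 0.264 ± 0.0353 in WT (SD, n = 4) and 0.254 ± 0.0180 in SCA7 (SD, n = 3), a difference of -0.052 on the log2 scale (exact permutation p = 0.714, adjusted 0.714).

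*Tapbp* (ENSMUSG00000024308, chromosome 17 from 33915899 to 33929292, plus strand) codes for tapasin, which bridges TAP and the empty class I molecule. It had by far the most counts of these loading genes and the smallest relative spread of all members, with 74.0, 73.3, 72.3 and 73.2 CPM in WT and 97.9, 96.8 and 97.9 CPM in SCA7. The groups did not overlap although the increase was the smallest of the 10, at a log2 fold change of 0.41 (SE 0.05, FC 1.33, edgeR adjusted p = 9e-05), just inside the FC threshold. Per kb of the union of exons, *Tapbp* over *Tap1* accordingly fell from 30.4 ± 3.06 (SD, n = 4) to 21.0 ± 1.303 (SD, n = 3), a difference of -0.53 on the log2 scale (exact permutation p = 0.0286, adjusted 0.0458).

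Each of the immunoproteasome subunits was upregulated, while the constitutive subunits that they replace were not called. *Psmb8* (ENSMUSG00000024338, chromosome 17 from 34197721 to 34201454, plus strand), which codes for LMP7 and takes the place of the product of *Psmb5*, was at 3.71, 4.38, 4.99 and 3.07 CPM in WT and at 8.55, 9.12 and 8.11 CPM in SCA7. All 3 SCA7 values exceeded all 4 WT values, and the log2 fold change was 1.09 (SE 0.139, FC 2.13, edgeR adjusted p = 1.3e-04).

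*Psmb9* (ENSMUSG00000096727, chromosome 17 from 34181987 to 34187764, minus strand), which codes for LMP2 and stands in for the product of *Psmb6*, was the least certain of the members. It had 1.66, 1.59, 2.66 and 1.18 CPM in WT and 3.46, 2.80 and 3.24 CPM in SCA7. The WT spread was wide, with WT 3 close to the lowest SCA7 library. The log2 fold change was 0.85 (SE 0.218, FC 1.80, edgeR adjusted p = 0.013). Without SCA7 1 it was 0.78 and no longer passed the test (edgeR adjusted p = 0.058). Without WT 3 it was 1.10, and without WT 4 it was 0.69.

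*Psmb10* (ENSMUSG00000031897, chromosome 8 from 105935735 to 105938444, minus strand), which codes for MECL-1 and replaces the product of *Psmb7*, was the most abundant of the immunoproteasome subunits per kb. WT libraries had 12.5, 12.5, 17.2 and 12.2 CPM and SCA7 libraries had 20.4, 19.4 and 20.6 CPM. WT 3 again lay nearest to the SCA7 range. The log2 fold change was 0.57 (SE 0.11, FC 1.48, edgeR adjusted p = 0.0025).

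The constitutive subunits *Psmb5*, *Psmb6* and *Psmb7* were all more abundant per kb of exon than their inducible counterparts. *Psmb5* stood at 66.8 ± 12.1 CPM in WT (SD, n = 4) and 70.3 ± 0.714 CPM in SCA7 (SD, n = 3), with a log2 fold change of 0.08 (SE 0.113, edgeR adjusted p = 0.66). *Psmb6* stood at 164 ± 20.6 and 159 ± 5.71 CPM (log2 fold change -0.046, SE 0.087, edgeR adjusted p = 0.74), and *Psmb7* at 112 ± 10.7 and 115 ± 0.809 CPM (log2 fold change 0.047, SE 0.073, edgeR adjusted p = 0.67). None of these 3 had groups that separated. Per kb of the union of exons, *Psmb8* rose from 0.0160 to 0.0325 of *Psmb5*, a 2.03-fold higher ratio (exact permutation p = 0.0286, adjusted 0.0458). *Psmb10* rose from 0.243 to 0.351 of *Psmb7*, 1.45-fold (exact permutation p = 0.0286, adjusted 0.0458). *Psmb9* over *Psmb6* was 0.00541 ± 0.00120 (SD, n = 4) and 0.0102 ± 0.00125 (SD, n = 3), 1.91-fold apart and with groups that did not overlap, but it did not pass after adjustment (exact permutation p = 0.0571, adjusted 0.0761). Only 45.9% of the 50-base words of *Psmb5* were found in no other gene, most of the rest being shared with *Gm3375*, so its level is the least certain of the 3.

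*Nlrc5* (ENSMUSG00000074151, chromosome 8 from 94434356 to 94527272, plus strand), the class I transactivator, was the rarest member per kb and had the largest increase. Its levels were 0.837, 0.755, 0.394 and 0.551 CPM in WT and 2.75, 2.38 and 2.17 CPM in SCA7. These correspond to 21 to 54 counts per WT library and 169 to 223 counts per SCA7 library, with no overlap. The log2 fold change was 1.92 (SE 0.211, FC 3.79, edgeR adjusted p = 4e-05), above those of 99.6% of tested genes. In contrast to most members, WT 3 had the lowest level of *Nlrc5*. *Ciita*, the related transactivator of class II genes, had very few counts, with means of 0.137 and 0.143 CPM in WT and SCA7 retina, and was not called (log2 fold change -0.010, edgeR adjusted p = 0.99).

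Levels of different members were compared per length, as counts scaled by DESeq2 size factors per kb of the median transcript (RPK). In WT retina *Tapbp* was highest at 7785 ± 80.4 RPK (SD, n = 4), followed by *H2-D1* at 5017 ± 628, *B2m* at 2505 ± 248, *H2-K1* at 2433 ± 265, *Tap2* at 1753 ± 95.9 and *Psmb10* at 1190 ± 208 RPK. *Psmb8* at 226 ± 46.2, *Psmb9* at 156 ± 55.2, *Tap1* at 95.7 ± 9.20 and *Nlrc5* at 25.4 ± 8.07 RPK made up the low end. The neighbours *B2m* and *H2-K1*, *Psmb8* and *Psmb9*, and *Psmb9* and *Tap1* overlapped between libraries, and the other neighbours did not. In SCA7 retina *H2-K1* passed *B2m* in the order (6542 and 6228 RPK, overlapping), and the order was otherwise unaltered.

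The length used decided part of this order. The median transcript of *Tap2* has 378 bases, whereas its exons together cover 3781 bases. With the union of exons as length, *B2m* came first in WT retina at 2505 ± 248 RPK and *Tapbp* followed at 1393 ± 14.4, *H2-D1* at 1091 ± 137, *H2-K1* at 714 ± 77.6, *Psmb10* at 550 ± 96.1 and *Tap2* at 175 ± 9.59 RPK (SD, n = 4). In SCA7 retina the order on that scale became *B2m* at 6228, *H2-D1* at 2069, *H2-K1* at 1918 and *Tapbp* at 1872 RPK. The last 3 overlapped as neighbours, so that the heavy chains no longer stood below tapasin.

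**Figure D3:**
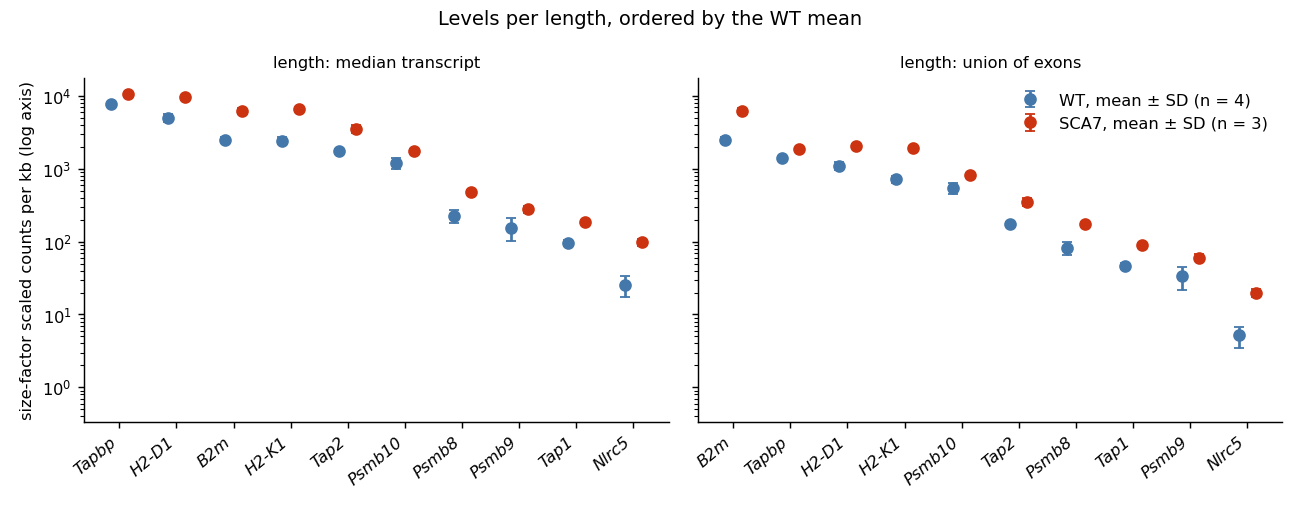
Level of each member as size-factor scaled counts per kb (log axis), with the median transcript as length on the left and the union of exons on the right, as mean ± SD over 4 WT (blue) and 3 SCA7 (red) libraries, genes ordered by their WT mean. Every red point is above its blue point, and *Nlrc5* is lowest on both scales; with the union of exons *B2m* moves ahead of *Tapbp* and *H2-D1*, *Psmb10* ahead of *Tap2* and *Tap1* ahead of *Psmb9*.

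Overlapping genes were looked at because HTSeq's strand option was not given in the sources used here. *Tap1* and *Psmb9* share 212 exon bases on opposite strands, which is 3.87% of the exons of *Tap1* and 5.79% of those of *Psmb9*, so reads there could be assigned to neither or to the wrong partner. *Gm19412*, antisense to 904 bases (24.9%) of *Tapbp* exons, had means of 2.49 and 2.06 CPM in WT and SCA7 retina, against the 73.2 and 97.5 CPM of *Tapbp*. *Zbtb22* shares 149 exon bases (4.11%) with *Tapbp* on the same strand, where no strand option can tell them apart, and had means of 61.1 and 60.8 CPM with a log2 fold change of -0.007 (edgeR adjusted p = 0.95). The antisense partners of *Psmb8*, *Tap2* and *Nlrc5* had at most 15 counts in any library.

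The wider class I pathway was described with lists of genes by role. The other pathway lists held together 75 tested genes, without the T and NK cell list, which is counted on its own below. Of these, 16 (7 of them transcription factors and 5 of them heavy chains) were upregulated, where 7.47% of all tested genes were. Downregulation was called for 1, where 7.91% of all tested genes were downregulated. The median log2 fold change of the 75 was 0.15. The counts of each list below stand against the same shares.

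Other class I heavy chains of the Q, T and M regions were split. Of 19 in the table, 10 were tested, 5 were upregulated, none was downregulated and the median was 0.50 on the log2 scale. *H2-Q4* rose most, with 3.34 ± 0.293 CPM in the WT libraries (SD, n = 4) and 12.1 ± 1.10 CPM in the SCA7 libraries (SD, n = 3), at a log2 fold change of 1.86 (SE 0.1, edgeR adjusted p = 1.8e-07). *H2-Q6* and *H2-Q7* rose by 1.04 each (edgeR adjusted p = 6.5e-04 and 3.2e-04), *H2-M3*, which presents formylated peptides, by 0.89 (edgeR adjusted p = 3.6e-04), and *H2-T23*, which codes for Qa-1 and presents leader peptides of other class I chains, by 0.83 (edgeR adjusted p = 6.9e-04). In these 5, which were picked here as the upregulated ones, every SCA7 library was above every WT library, as in 19.3% of all tested genes. The remaining 5 overlapped between groups, with log2 fold changes of -0.48 for *H2-Q2*, -0.40 for *H2-Q10*, -0.30 for *H2-T10*, 0.15 for *H2-T22* and 0.18 for *H2-T24* (edgeR adjusted p from 0.19 to 0.63). Values of this family are uncertain where sequence is shared: 63.6% of the 50-base words were found in no other gene for *H2-Q4*, 65% for *H2-Q6*, 73.5% for *H2-Q7*, 49.6% for *H2-T10*, 46.5% for *H2-T22* and 85.5% for *H2-T23*, but 99.4% for *H2-M3*.

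Class I-like molecules coded outside the region, such as *Mr1* and *Cd1d1*, were not called in any of 6 tested genes. *Mr1*, which presents vitamin metabolites, passed the test but not the FC threshold (log2 fold change 0.33, edgeR adjusted p = 0.02), and *Hfe*, *Cd1d1* and *Fcgrt* had log2 fold changes of 0.15, -0.074 and -0.040. With library totals 1 gene of the list was upregulated.

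Of 12 chaperones and trimming enzymes, 2 were upregulated and none was downregulated, with a median of 0.13. *Tapbpl*, which codes for the tapasin-related peptide editor TAPBPR, rose from 4.45 ± 0.297 to 8.31 ± 0.449 CPM (log2 fold change 0.90, SE 0.091, edgeR adjusted p = 2e-05), and *Erap1*, which trims peptides in the endoplasmic reticulum, rose by 0.43 (SE 0.061, edgeR adjusted p = 2.6e-04). The cytosolic peptidases *Npepps* and *Tpp2* were lower by -0.42 and -0.37 and passed the test but not the FC threshold (edgeR adjusted p = 0.0013 and 0.0026). Among 10 genes of proteasome activators and assembly, *Psme1*, a subunit of the interferon-inducible activator PA28, was upregulated (log2 fold change 0.51, SE 0.1, edgeR adjusted p = 0.003). *Psme2*, which codes for the partner subunit, had a log2 fold change of 0.28 (edgeR adjusted p = 0.016), short of the FC threshold. With library totals 3 genes of this list were upregulated.

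**Figure D4:**
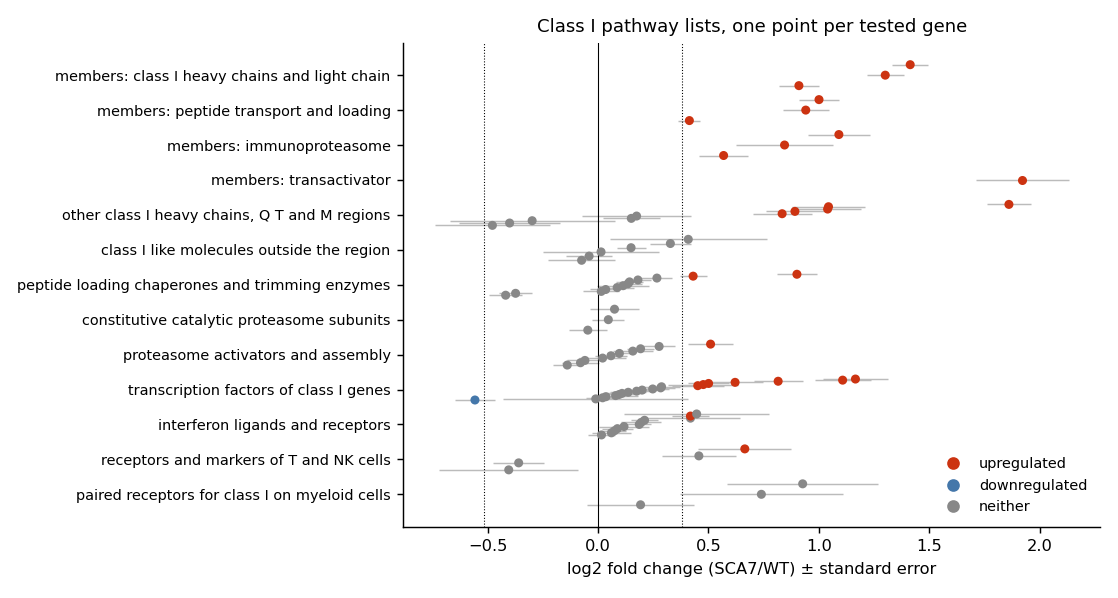
Log2 fold change (SCA7/WT) with its standard error (horizontal axis) of each tested gene of the members and of the other pathway lists (rows), with upregulated genes in red, downregulated genes in blue and others in grey; dotted lines mark FC 0.7 and 1.3. All 10 members are red, against 16 red and 1 blue of 75 genes in the other lists without that of T and NK cells. In the T and NK cell list 1 of 4 genes is red, and the constitutive subunits lie close to 0.

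Among 20 tested transcription factors of class I genes, 7 were upregulated and 1 was downregulated, with a median of 0.22, whereas 11 and 0 were called with library totals in place of TMM, and 5 to 7 were upregulated with a library left out. *Irf9*, a DNA-binding factor of the interferon response, rose by 1.17 on the log2 scale, with 15.02 ± 3.34 CPM in the WT libraries (SD, n = 4) and 33.8 ± 3.17 CPM in the SCA7 libraries (SD, n = 3; SE of the change 0.148, edgeR adjusted p = 4e-04). The NF-kappaB subunit gene *Nfkb2* rose by 1.11, the myeloid factor *Irf8* by 0.82 and *Irf1* by 0.62 (edgeR adjusted p = 5.4e-05, 2e-04 and 0.0031). Also upregulated, and named here after their values were seen, were *Relb* and *Irf7*, with log2 fold changes of 0.48 and 0.45. *Nfkb1* was downregulated, with a log2 fold change of -0.56 (edgeR adjusted p = 8.4e-04), a call that was absent without WT 3 and with library totals. Of the genes for the factors of the conserved module, the RFX, NF-Y and CREB subunits, none was called, although *Nfyb*, *Rfxap* and *Rfxank*, at log2 fold changes of 0.28, 0.25 and 0.20, passed the test without reaching the FC threshold (edgeR adjusted p = 0.0059, 0.023 and 0.041).

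The 6 interferon genes listed, of the beta, gamma, kappa, epsilon and lambda types, gave almost no counts, and interferon alpha genes were not looked at. *Ifng* and *Ifnb1* had at most 1 count in any library, *Ifnl2* and *Ifnl3* at most 3, and *Ifnk* and *Ifne* none. Of 11 tested receptor and signalling genes, 1 was upregulated, *Ifnar2*, with a log2 fold change of 0.42 (SE 0.083, edgeR adjusted p = 0.0028), and with library totals 4 were. At this depth 3 counts correspond to 0.0292 to 0.0563 CPM, so lower levels could not be told from 0.

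Cells that read class I molecules were sparsely represented. Of 20 receptors and markers of T and NK cells, 4 had enough counts to be tested and 1 was upregulated, *Cd8a*, with means of 0.444 and 0.715 CPM in WT and SCA7 retina (log2 fold change 0.67, SE 0.211, edgeR adjusted p = 0.034), named after its values were seen. The list held no upregulated gene when any library other than WT 2 or WT 3 was left out, nor with the DESeq2 Wald test, an adjusted p under 0.01 or the replicate block over the libraries with shared numbers, and with library totals in place of TMM 2 were upregulated. The kinase genes *Zap70* and *Lck* had log2 fold changes of -0.36 and 0.46 and were not called (edgeR adjusted p = 0.035, short of the FC threshold, and 0.062), and every SCA7 library was below every WT library for *Zap70*. Of the genes of the T cell receptor complex, *Cd3d* had 8 to 21 counts per library and a log2 fold change of -0.40 (edgeR adjusted p = 0.37), while *Cd3e* and *Cd3g* had at most 4 and 3 counts in any library. The summed level of the whole list was 5.17 to 6.49 CPM in WT and 5.74 to 5.80 CPM in SCA7, most of it from *Zap70* (means 3.20 and 2.49 CPM) and *Lck* (1.16 and 1.59 CPM), so the sum says little of the other genes listed. Of the paired receptors for class I on myeloid cells, 3 were tested and none was called, against 1 with library totals, with no filter beyond 1 count and with the *Xist* covariate.

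Markers of microglia and reactive glia rose along with the members, while the lists for other cells were mixed or mostly lower. All 17 microglial markers were upregulated (median 1.08 on the log2 scale), and their summed level was 88.5 to 112 CPM in WT and 193 to 217 CPM in SCA7. *C1qa*, *C1qb* and *C1qc*, which code for complement C1q, rose by 1.44, 1.44 and 1.53, and *Fcrls* by 2.12. Of 11 markers of reactive glia 9 were upregulated (median 1.71), from a summed 430 to 466 CPM in WT to 954 to 1076 CPM in SCA7. The *Gfap* gene of the glial intermediate filament rose by 2.30 and the growth factor gene *Fgf2* by 2.91. Of 10 Müller glia markers 2 were upregulated, with summed levels that overlapped (5596 to 6395 and 6079 to 6403 CPM). *Glul* had the most counts of these, with means of 2928 and 2287 CPM and every SCA7 library below WT. *Aqp4*, *Kcnj10* and *Sox9* had every SCA7 library above WT but were not called, so the sum hides opposite changes. Of 12 endothelium and pericyte markers 3 were upregulated, with sums of 332 to 384 and 432 to 478 CPM. *Kdr* had the most counts there (means 106 and 171 CPM). *Pecam1* had a log2 fold change of -0.010 and *Cldn5* of -0.48, while 8 of the 12 were above 0. In turn all 10 rod markers and 9 of 10 cone markers were downregulated, while 1 cone marker, 1 of 8 pigment epithelium markers and no marker of red blood cells was upregulated; 3 pigment epithelium markers and 1 of 5 red blood cell markers were downregulated. Some of these counts were not stable: with a library left out, upregulated Müller glia markers were 1 (without WT 2) to 4 (without WT 4), upregulated pigment epithelium markers 0 to 2, downregulated ones 1 (without SCA7 2) to 3, and downregulated red blood cell markers 0 to 4 (4 without SCA7 2), while library totals gave 5 upregulated markers of Müller glia and 6 of endothelium and pericytes. The 17 microglial and at least 9 of the reactive glia markers were upregulated in each of these settings. The part that any of these cells had in the higher levels of the class I genes was not tested.

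**Figure D5:**
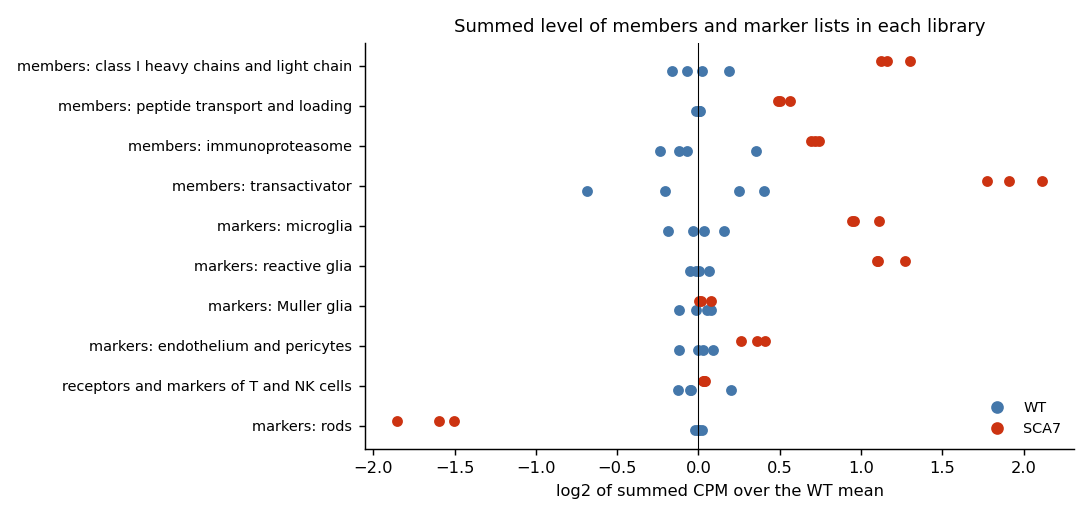
Summed CPM of each group of class I genes and of marker lists (rows) in each library, as log2 over the WT mean (horizontal axis), with WT in blue and SCA7 in red. The sums of the class I groups, microglia, reactive glia, and endothelium and pericytes are higher in all 3 SCA7 libraries, and rods are lower. *Kdr* has the most counts of the endothelium and pericyte markers and *Glul* of the Müller glia markers. The sums of Müller glia and of the T and NK cell list, mostly *Zap70* and *Lck*, overlap between the groups.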

How the data were processed

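Total RNA-seq libraries of 4 WT and 3 SCA7 mice, each from 2 retinas, were used. The authors prepared stranded libraries, mapped single reads of 50 bases to mm10 with TopHat2 2.0.14 and Bowtie2 2.1.0 and assigned them to Ensembl genes with HTSeq 0.6.1, and the deposited values are raw read counts without normalization for 52550 genes, of which 52403 were matched by identifier to the GENCODE annotation of GRCm38 (the assembly also called mm10). HTSeq's mode and strand option were not given in the sources used here. Total counts per library were 56497675 to 96635832. The spread between mice exceeds counting error, so errors are SDs over mice or standard errors of the fit.

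Genes were filtered by filterByExpr, scaled by TMM and tested in edgeR 4.0.16 (R 4.3.3) with the robust quasi-likelihood fit (glmQLFit, glmQLFTest) on all 7 libraries, without covariates, with Benjamini-Hochberg adjustment over the 20128 genes tested. Ratios were compared by exact permutation tests, and levels per kb used DESeq2 1.42.0 size factors. The steps were tested on simulated counts with known changes. Alternatives were DESeq2 size factors, library totals, the DESeq2 Wald test, limma-voom (limma 3.58.1), 2 other filters on low counts, the replicate number as a block, *Xist* as a covariate, no FC threshold, an adjusted p under 0.01, the union of exons as length and each library left out. *H2-K1* and *H2-D1* summed alone was chosen after seeing the data. The 10 members, the gene lists and the ratios were chosen with earlier results of these data known.

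Named were all members, all tested heavy chains of the Q, T and M regions, the 3 constitutive subunits, in other lists up to 4 genes with the largest change among those averaging 1 CPM or more, and the 5 genes whose pattern was most like the members; others are named after their values were seen. Promoters came from RefSeq windows on GRCm38.p6. ChIP-seq data were not analysed here. 1 listed transcription factor is counted but its own values are left out.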

Additional observations from a re-analysis of the deposited data

Results flagged for a closer look

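A single WT library stood apart from the others in 2 of the 18 groups of 4 values checked (10 member levels and 8 ratios), where chance is set to mark about 1 group in 20. *Tap2* in WT 4 was at 10.39 CPM, with the nearest WT library at 9.396 CPM, a gap of 0.91 of the whole WT range. *Psmb10* in WT 3 was at 17.18 CPM, with the nearest WT library at 12.49 CPM, a gap of 0.938 of the range. Both values lay below every SCA7 library of the same gene.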

How the results depend on the processing

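All 10 members kept their direction under every alternative run, and 9 or 10 of them were upregulated. The exception was *Psmb9*, whose log2 fold change of 0.845 (edgeR adjusted p = 0.013) did not pass an adjusted p under 0.01 and ranged from 0.691 to 1.10 with a library left out, without passing when SCA7 1 was absent. Over all alternatives the log2 fold change was 1.37 to 1.61 for *H2-K1*, 0.84 to 1.11 for *H2-D1*, 1.24 to 1.495 for *B2m*, 0.41 to 0.60 for *Tapbp* and 1.76 to 2.11 for *Nlrc5*. For the summed heavy chains, run under 10 alternatives of scaling, summing and left-out libraries, it was 1.04 to 1.295. With library totals in place of TMM the median of all genes shifted from -0.019 to 0.171, and 3681 genes were upregulated and 978 downregulated, against 1504 and 1592; without an FC threshold 2853 were higher and 2852 lower. With library totals the members' log2 fold changes were 0.604 for *Tapbp* to 2.106 for *Nlrc5*, all above the shifted median.

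The replicate numbers did not meet the rule for pairing, which asked for a correlation of deviations over 0.1 in each number. The r was 0.032, 0.382 and 0.141 for numbers 1, 2 and 3, so only number 1 missed it. A pairing is therefore not excluded. With the number as a block over all 7 libraries, all 10 members were upregulated, with *H2-K1* at 1.38 and *Psmb9* at 0.704, and no member's call changed. In all, 1629 genes were upregulated and 1706 downregulated. Over the 6 libraries with shared numbers all 10 were called as well, but the T and NK cell list had no upregulated gene. Both block fits gave 4 upregulated Müller glia markers and 1 downregulated marker of endothelium and pericytes, against 2 and 0 without a block.

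Leaving out a library, where the exact tests have an adjusted p of 0.0889 or 0.133 at the least, gave log2 differences of 0.469 to 0.528 for *H2-K1* over *H2-D1*, -0.434 to -0.351 for *H2-D1* over *B2m*, -0.574 to -0.481 for *Tapbp* over *Tap1*, 0.973 to 1.07 for *Psmb8* over *Psmb5* and 0.504 to 0.585 for *Psmb10* over *Psmb7*. *Tap1* over *Tap2* ranged from -0.139 to 0.006, turning its sign without WT 2. With the union of exons as length, levels in WT fell by construction, to 714 RPK for *H2-K1*, 1091 for *H2-D1*, 46.1 for *Tap1*, 175 for *Tap2*, 1393 for *Tapbp*, 82.4 for *Psmb8*, 33.4 for *Psmb9*, 550 for *Psmb10* and 5.16 for *Nlrc5*. The fewest counts were those of *Nlrc5* and *Psmb9*, with 21 to 54 and 77 to 142 per WT library.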

Other observations

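Outside the members, the genes averaging 1 CPM or more whose log2 CPM over the 7 libraries followed the mean of the 10 members most closely were *Ptgfr*, *Slc14a1*, *Pld4*, *Pdpn* and *Serpina3n*, with Pearson r of 0.9987, 0.9978, 0.9972, 0.9969 and 0.9963. *Ptgfr* codes for the receptor of prostaglandin F2 alpha, *Slc14a1* for a urea transporter, *Pdpn* for podoplanin and *Serpina3n* for a serine protease inhibitor of reactive glia. All libraries share the genotype difference, and 647 of 14710 genes compared had an r above 0.95, so these values describe the order of the libraries and carry no test. The log2 fold changes were 1.92, 0.98, 1.12, 1.10 and 3.36.

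Between *Tapbp* and *H2-D1* (chromosome 17 from 33915899 to 35267499), 7 members lie among other genes. Of 68 other protein-coding genes tested there, 5 (7.35%) were upregulated and 3 were downregulated, and the median was 0.007 on the log2 scale, where 7.47% of all tested genes were upregulated. Of 7 MHC class II genes tested among them, a group singled out after the values were seen, none was upregulated, with a median log2 fold change of -0.21.

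WT 3 was the highest WT library for *H2-K1*, *H2-D1*, *B2m*, *Psmb8*, *Psmb9* and *Psmb10* and the lowest for *Nlrc5* and *Tapbp*. SCA7 1 was the highest SCA7 library for *H2-K1*, *H2-D1*, *B2m*, *Tap1*, *Tap2*, *Psmb9* and *Nlrc5*.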
